A study of Rattus norvegicus with 12 samples.

Results

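SMC/Peri is the cluster in which the authors placed vascular smooth muscle cells and pericytes of the rat kidney. Its members here are all nuclei that carry this cluster name in the deposited table of nuclei, 811 of 217132 (0.374%). They came from 12 of 12 rats, with 12 to 128 nuclei per rat, and all 811 were typed as stroma. SMC/Peri was the 21st of 25 clusters by size and held 14.0% of the 5809 stroma nuclei. The cluster of fibroblasts and pericytes (Fib/Peri, 5001 nuclei) is about as large as the rest of the stroma. Together with SMC/Peri it slightly exceeds the stroma, so a few Fib/Peri nuclei carry another type. A share of stroma nuclei thus mainly sets SMC/Peri against Fib/Peri. Counts of single genes were not analysed here, so the name was not checked against Myh11 (smooth muscle myosin heavy chain) or Acta2 (smooth muscle actin).

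Smooth muscle cells wrap renal arteries and arterioles and set their width, and with it the pressure and flow in the glomerulus. Pericytes lie along capillaries, including those of the medulla, and can contract and take part in fibrosis. In vascular smooth muscle in general, nitric oxide from the neighbouring endothelium binds the heme of soluble guanylate cyclase (sGC), which then makes cGMP and relaxes the cell. Expression differs between vessels and cell types, and how much sGC the SMC/Peri nuclei of these kidneys express was not analysed here. In its own finer division of the stroma, the study found little sGC expression in vascular smooth muscle. It found the sGC gene Gucy1a2 mainly in pericytes and a mesangial cluster. An sGC stimulator raises the activity of the heme-carrying enzyme, whereas an sGC activator acts on the enzyme when its heme is oxidised or lost.

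Kidneys of male ZSF1 rats were measured, a strain with mutations of the leptin receptor whose obese form becomes diabetic and develops kidney disease. The labels give 1 genotype, ZSF1-LeprfaLeprcp/Crl, for lean and obese animals alike, while the study treats lean and obese as different genotypes. Obese rats were 13 to 14 weeks old when 12 weeks of dosing began, with vehicle, with sGCact (BAY 1101042, runcaciguat) at 3 mg/kg given 2 times a day, or with sGCstim (BAY 1165747) at 3 mg/kg given 1 time a day. Lean rats received nothing, so that genotype, phenotype and vehicle cannot be told apart in lean against obese. Each group had 3 sequenced rats, out of 10 in each obese group and 6 lean rats. Obese rats given vehicle are called untreated obese below.

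Per rat the table held 10488 to 43484 nuclei, while the labels speak of 10000 nuclei loaded, and how many loadings a rat had is not given in the sources used here. A nucleus is described by its unique molecular identifiers (UMIs, 1 per captured transcript molecule), how many genes it expressed, what percentage of UMIs was mitochondrial, its cell cycle scores and its coordinates on a 2-dimensional embedding. No cell barcode was shared between SMC/Peri nuclei of different rats (0 of 811), and 43 of 811 recurred in another rat in any cluster. Proximal tubule nuclei made up 32.6% to 92.1% of a rat's nuclei, which bears on every share of all nuclei.

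The first question was whether SMC/Peri nuclei were more or less frequent in obese than in lean kidneys and under treatment. In the lean rats SMC/Peri made up 0.702% (RK1_4, 117 nuclei), 0.482% (RK3_4, 73 nuclei) and 0.526% (RK5_4, 89 nuclei) of all nuclei. In the untreated obese rats the shares were 0.114% (RK7_4, 12 nuclei), 0.103% (RK9_4, 45 nuclei) and 0.976% (RK16_4, 128 nuclei). RK16_4 thus had the highest share of the 12 rats and gave 69.2% of the SMC/Peri nuclei of its group, while RK7_4 and RK9_4 had the lowest shares. Under sGCact the shares were 0.297% (RK43_4, 63 nuclei), 0.384% (RK45_4, 83 nuclei) and 0.429% (RK46_4, 45 nuclei). Under sGCstim they were 0.348% (RK57_4, 43 nuclei), 0.327% (RK58_4, 40 nuclei) and 0.313% (RK61_4, 73 nuclei). Every treated rat lay above RK7_4 and RK9_4 and below the 3 lean rats and RK16_4.

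The spread within groups was uneven. Between the lowest and the highest rat the share differed 1.46-fold in the lean group and 9.43-fold among untreated obese rats. It differed 1.45-fold under sGCact and 1.11-fold under sGCstim. Under sGCstim the counts of SMC/Peri nuclei varied no more than counting error gives (chi-square per degree of freedom 0.149), against 145.5 in the untreated obese rats. The Wilson interval (95%) of RK7_4, with the fewest nuclei, ran from 0.0650% to 0.199%, and that of RK16_4 from 0.821% to 1.16%. These intervals cover counting error only.

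**Figure D1:**
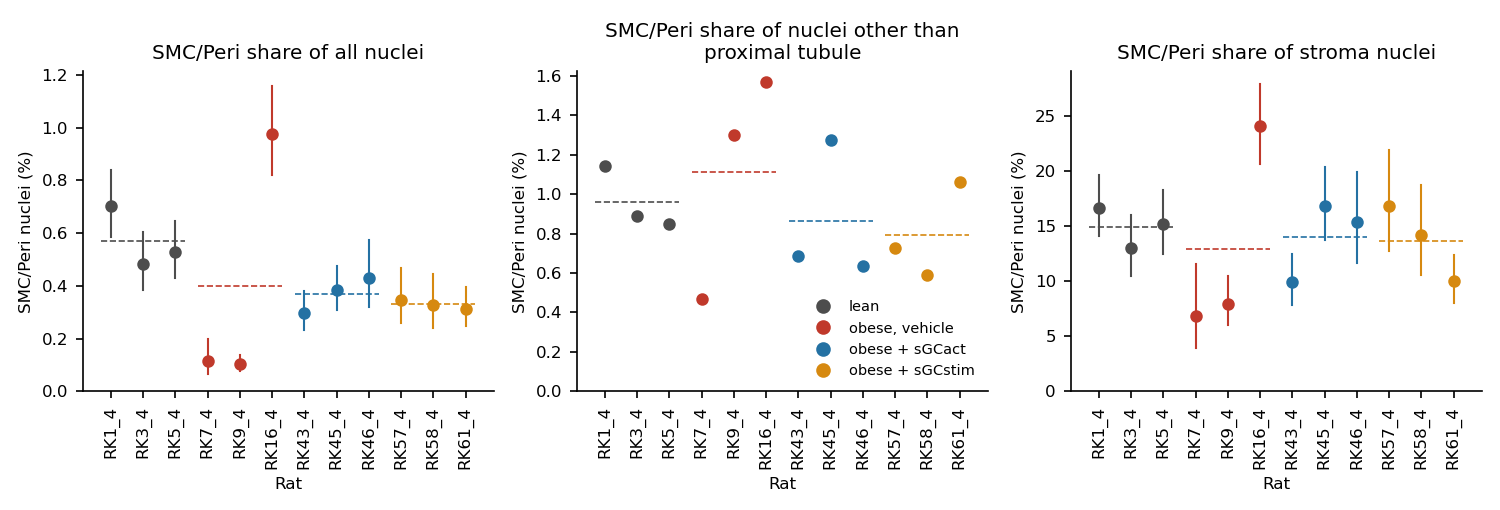
SMC/Peri nuclei in percent of all nuclei (left), of nuclei other than proximal tubule (middle) and of stroma nuclei (right), with 1 point per rat, vertical lines for the 95% Wilson interval (left and right) and dashed lines for the mean of 3 rats. RK16_4 is the highest of the 12 rats in each panel, and RK7_4 and RK9_4 are the lowest in the left and right panels, whereas RK9_4 (1.30%) is the second highest in the middle one.

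Mean shares were 0.570% ± 0.116 in the lean group and 0.398% ± 0.501 among untreated obese rats (SD, n = 3 each). With sGCact the mean was 0.370% ± 0.0673, and with sGCstim 0.329% ± 0.0175 (SD, n = 3 each). On the log odds scale (natural log of the odds that a nucleus is SMC/Peri) untreated obese minus lean was -0.90 (SE 0.556, 95% interval -2.10 to 0.30, limma adjusted p = 0.358). Of the 9 pairs of 1 obese and 1 lean rat, 3 had the higher share in the obese rat, each time for RK16_4. In this contrast 12% of the 25 clusters passed the threshold of 0.05, and SMC/Peri was not among them. The median difference of all clusters was -0.66. Against untreated obese, sGCact gave 0.47 (limma adjusted p = 0.571) and sGCstim 0.37 (limma adjusted p = 0.792), with medians over all clusters of 0.62 and 0.50. In each of these contrasts 0% of the clusters passed, and 0 of 25 clusters had an unadjusted p under 0.05. The edgeR quasi-likelihood test on the numbers of nuclei called 0 clusters under either drug and DESeq2 called 3 under sGCact and 0 under sGCstim, none of them SMC/Peri. An exact permutation test over rats was run on the percentages, not the log odds, and cannot go below 0.1 with 3 against 3. This exact permutation test on percentages gave p = 0.6 for obese against lean and p = 1 for each treatment. On that scale both treated means (0.370% and 0.329%) lay below the untreated obese mean (0.398%), whereas their log odds differences were positive. The permutation test thus did not test the positive log odds differences of the treatments.

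The compounds did not differ in SMC/Peri share beyond the spread between rats, pooled over all 4 groups. That spread includes the wide one of untreated obese rats, which belong to neither group compared here. At 3 mg/kg, but with different numbers of doses a day, sGCact minus sGCstim was 0.10 (limma adjusted p = 0.964), which is a ratio of the odds of 1.11 with a 95% interval of 0.333 to 3.69. Here 0% of the clusters passed, 0 of 25 had an unadjusted p under 0.05, and edgeR and DESeq2 called 0 clusters. Without RK16_4 the difference was the same, with an SE of 0.248 in place of 0.556 (limma adjusted p = 0.853). Set beside the lean rats, in comparisons chosen after the data were seen, sGCact was lower by 0.43 and sGCstim by 0.53 in log odds, with limma adjusted p = 0.709 and 0.682. Without RK16_4 the limma adjusted p values of the same differences were 0.280 and 0.208. No treated rat reached the share of a lean rat (lower in 9 of 9 comparisons of rats under each drug, exact permutation p = 0.1 each). Groups without overlap were common in these 2 contrasts, however, at 48% of the clusters for sGCact and 44% for sGCstim, and 4% of the clusters passed the limma threshold in each.

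Leaving out RK16_4 changed the results that involve untreated obese rats. Without it the log odds of untreated obese minus lean were -1.63 (limma adjusted p = 0.00231), an odds ratio of 0.196. The corresponding values were 1.20 for sGCact minus untreated obese (limma adjusted p = 0.0197, odds ratio 3.32) and 1.10 for sGCstim minus untreated obese (limma adjusted p = 0.0355, odds ratio 2.99). All 3 then passed the threshold, on 2 untreated obese rats. In the same fits 36% of clusters passed for obese against lean and 8% for each treatment, where PST, a proximal tubule cluster, was the other 1 of the 2 clusters called. The median over all clusters also moved, to -1.32 for obese against lean and to 1.14 and 1.12 for the treatments. SMC/Peri was the 10th, 12th and 15th of 25 clusters by size of the difference.

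The denominator changed them as well. RK7_4 and RK9_4 had 75.8% and 92.1% proximal tubule nuclei, the highest values of the 12 rats, and RK16_4 had 37.8%, next to the range of the lean rats (38.0% to 45.7%). Among nuclei other than proximal tubule, SMC/Peri made up 1.14%, 0.887% and 0.849% in the lean rats RK1_4, RK3_4 and RK5_4. The untreated obese rats RK7_4, RK9_4 and RK16_4 had 0.470%, 1.30% and 1.57%. The lean values lay inside the range of the untreated obese ones. Under sGCact the values were 0.688% (RK43_4), 1.27% (RK45_4) and 0.636% (RK46_4). Under sGCstim they were 0.725% (RK57_4), 0.591% (RK58_4) and 1.06% (RK61_4), so that all 4 groups overlapped. The differences in log odds turned to 0.05 for obese minus lean, -0.19 for sGCact minus untreated obese and -0.26 for sGCstim minus untreated obese (limma adjusted p = 0.934, 0.744 and 0.969). None of these contrasts called any of the 17 clusters (0%), with 2, 0 and 0 clusters at an unadjusted p under 0.05. When RK16_4 was also left out, a combination chosen after the data were seen, they were -0.18, 0.03 and -0.03 (limma adjusted p = 0.886, 0.955 and 0.990), and 5.88%, 5.88% and 0% of clusters passed. The calls made without RK16_4 were thus not made once proximal tubule nuclei were set aside.

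**Figure D2:**
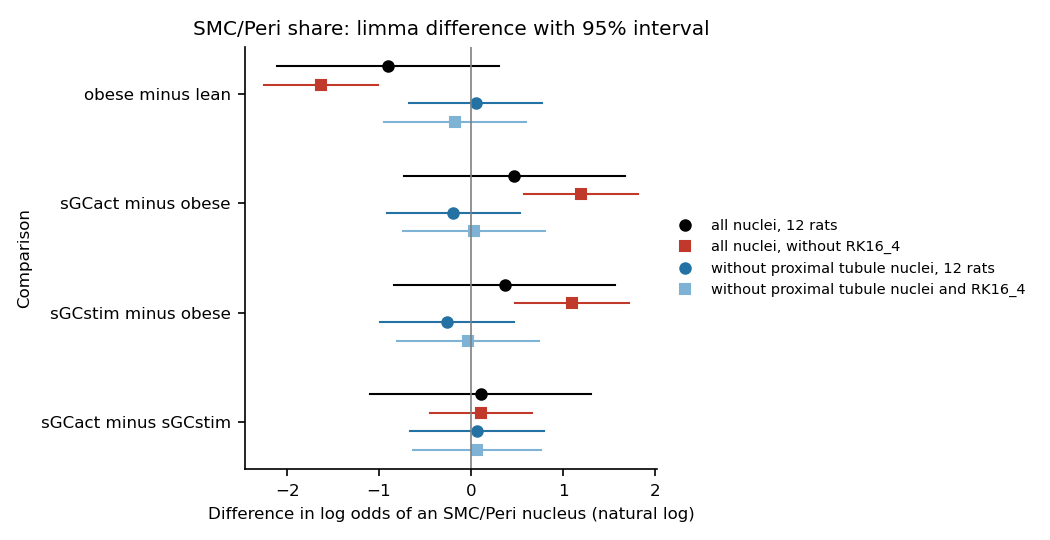
Difference between groups in the log odds of an SMC/Peri nucleus (horizontal axis, natural log), with points for the limma estimate and lines for its 95% interval, for all nuclei and without proximal tubule nuclei, each with 12 rats and without RK16_4. With all nuclei the first 3 comparisons exclude 0 only without RK16_4 (-1.63, 1.20 and 1.10), and without proximal tubule nuclei every interval spans 0.

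Across the 12 rats the SMC/Peri share followed the proximal tubule share downwards. Pearson's r of the log odds was -0.847 (permutation p = 0.00024, adjusted over 3 relations 0.00072) and Spearman's rho -0.832 (adjusted permutation p = 0.00417). Shares of 1 total push each other, since more tubule nuclei leave less room for all others. Without RK7_4 and RK9_4, the rats farthest from the median of the proximal tubule share, r was -0.606 (adjusted permutation p = 0.181), so the relation rests in part on those rats. With each group's mean taken out r was -0.792 (adjusted permutation p = 0.109).

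Within the stroma, SMC/Peri was set against its closest relatives, since Fib/Peri holds the other perivascular cells. Its share of stroma nuclei was 16.7%, 13.0% and 15.2% in the lean rats RK1_4, RK3_4 and RK5_4. In the untreated obese rats it was 6.86% in RK7_4, 7.95% in RK9_4 and 24.1% in RK16_4. RK7_4 and RK9_4 were again the lowest and RK16_4 the highest of the 12 rats. The Wilson interval (95%) ran from 3.97% to 11.6% in RK7_4 and from 5.99% to 10.5% in RK9_4. Both overlapped the intervals of the treated rats RK43_4 (7.83% to 12.5%) and RK61_4 (8.05% to 12.4%). That of RK16_4 (20.6% to 27.9%) overlapped that of RK57_4 (12.8% to 21.9%). Tubule nuclei are not counted in the stroma share, but their part in these ranks was not tested. Treated rats lay at 9.92%, 16.8% and 15.4% under sGCact (RK43_4, RK45_4, RK46_4). Under sGCstim they lay at 16.9%, 14.2% and 10.0% (RK57_4, RK58_4, RK61_4). The treated groups overlapped the lean range and each other. Differences in log odds were -0.31 for obese minus lean, 0.22 for sGCact and 0.20 for sGCstim minus untreated obese, and 0.02 for sGCact minus sGCstim (exact permutation p = 0.5, 0.8, 0.8 and 1). Single rats moved these values widely. Obese minus lean was -0.77 without RK16_4 and -0.05 without RK7_4, and without RK7_4 the treatment differences turned to -0.04 for sGCact and -0.06 for sGCstim. Across rats, the SMC/Peri and Fib/Peri shares of nuclei other than proximal tubule had r = 0.466 and rho = 0.378 (adjusted permutation p = 0.173 and 0.287), and r was 0.267 without RK9_4 and RK61_4.

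Smooth muscle shares the vessel wall with endothelium, and AA/LA/EA is the endothelial cluster named for arteries and arterioles. The number of SMC/Peri nuclei per AA/LA/EA nucleus was 0.470, 0.658 and 0.718 in the lean rats RK1_4, RK3_4 and RK5_4. It was 0.667, 1.73 and 1.05 in the untreated obese rats RK7_4, RK9_4 and RK16_4. Only RK7_4, with 12 SMC/Peri and 18 AA/LA/EA nuclei, fell within the lean range. Under sGCact the ratio was 0.940, 1.84 and 0.763 (RK43_4, RK45_4, RK46_4). Under sGCstim it was 0.860, 0.656 and 0.973 (RK57_4, RK58_4, RK61_4). All sGCact-treated rats thus lay above the lean range, a comparison that was not tested or counted over other clusters. The denominator differed too. AA/LA/EA made up 0.986% ± 0.439 of all nuclei in lean and 0.387% ± 0.474 in untreated obese rats (SD, n = 3). Its share was 0.362% ± 0.182 under sGCact and 0.408% ± 0.0880 under sGCstim (SD, n = 3). The mean log2 ratio differed by 0.82 between untreated obese and lean rats (higher in 8 of 9 comparisons, exact permutation p = 0.2). It was 0.47 without RK9_4 and 1.15 without RK7_4, 0.35 in nuclei of at least 1000 UMIs, 0.40 with at most 1% mitochondrial UMIs and 0.52 against all endothelial nuclei. Against untreated obese the differences were 0.04 under sGCact and -0.38 under sGCstim, and sGCact minus sGCstim was 0.42 (exact permutation p = 0.9, 0.4 and 0.5), and the first of these ran from -0.33 without RK45_4 to 0.38 without RK9_4. Among nuclei other than proximal tubule the shares of the 2 clusters had r = 0.422 and rho = 0.336 across rats (adjusted permutation p = 0.173 and 0.287), and r was 0.111 without RK1_4 and RK16_4.

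**Figure D3:**
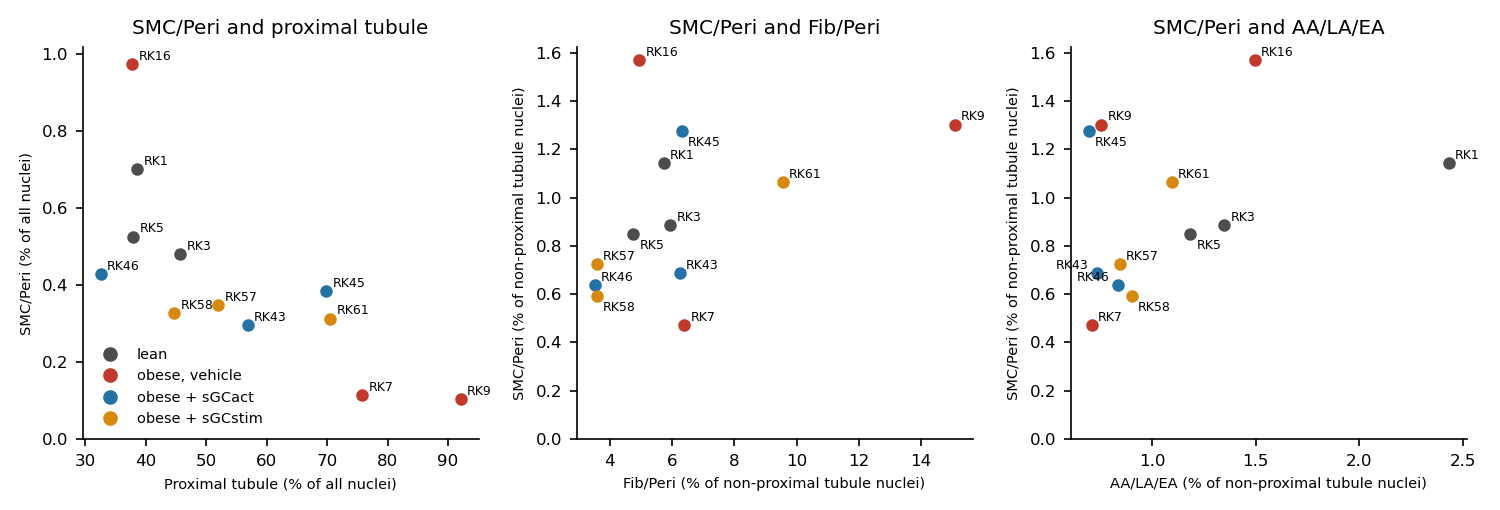
SMC/Peri share against the shares of proximal tubule (left, percent of all nuclei), Fib/Peri (middle) and AA/LA/EA (right, both in percent of nuclei other than proximal tubule), with 1 labelled point per rat coloured by group. The left panel falls from RK16_4 to RK9_4 (r = -0.847 on the log odds scale), between parts of 1 total. In the other panels r was 0.466 and 0.422. Their denominator differs, so their strength is not comparable with that of the left panel.

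The amount of RNA captured per SMC/Peri nucleus also varied. Median UMIs per nucleus were 2117, 1671 and 1188 in the lean rats RK1_4, RK3_4 and RK5_4 and 755.5, 1048 and 1161.5 in the untreated obese rats RK7_4, RK9_4 and RK16_4. The groups did not overlap, although RK5_4 and RK16_4 nearly met, and 27.3% of the 22 clusters with enough nuclei were likewise without overlap. The median of all other nuclei also differed, at 2240.5 ± 625 UMIs in lean and 1026 ± 325 in untreated obese rats (SD, n = 3). Under sGCact the medians were 1344, 729 and 1213 (RK43_4, RK45_4, RK46_4) and under sGCstim 1273, 1597 and 887 (RK57_4, RK58_4, RK61_4). In each treated group the higher medians of a pair of rats lay above the untreated obese range, while RK45_4 lay below it and RK61_4 within it. Treated and untreated obese rats thus overlapped in SMC/Peri, and did not overlap in 9.09% of the clusters for sGCact and 4.55% for sGCstim. The log2 difference of untreated obese minus lean was -0.73 (SE 0.319), a ratio of 0.603, and missed the threshold (limma adjusted p = 0.0942), while 18.2% of the 22 clusters passed. It passed without RK5_4, at -0.95 (limma adjusted p = 0.0352). Against untreated obese the differences were 0.12 under sGCact and 0.32 under sGCstim, and sGCact minus sGCstim was -0.20 (limma adjusted p = 0.857, 0.961 and 0.773), beside 4.55%, 0% and 0% of clusters called. For sGCstim against untreated obese and for sGCact against sGCstim, 2 and 1 of the 22 clusters had an unadjusted p under 0.05.

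SMC/Peri UMIs were also set against the other nuclei of the same rat. The median of those other nuclei follows their cluster make-up as well as the depth of the rat. Proximal tubule made up 75.8% and 92.1% of the nuclei of RK7_4 and RK9_4, against 38.0% to 45.7% in the lean rats. The part of make-up in the ratios below was not tested. Relative to the median of all other nuclei of its rat, SMC/Peri had 0.725, 0.792 and 0.703 times as many UMIs in the lean rats RK1_4, RK3_4 and RK5_4. The ratio was 0.965, 1.16 and 0.832 in the untreated obese rats RK7_4, RK9_4 and RK16_4. The mean log2 ratio was 0.40 higher in untreated obese than in lean rats (higher in 9 of 9 comparisons, exact permutation p = 0.1, the smallest possible), the opposite direction to the UMIs themselves. Such a lack of overlap was common in this measure, at 40.9% of the 22 clusters, 8 of them higher and 1 lower in untreated obese rats. Among nuclei with at most 1% mitochondrial UMIs the difference was 0.02. In treated rats the ratio was 1.17, 0.756 and 0.688 under sGCact and 0.766, 0.989 and 0.897 under sGCstim, in the order of rats above, and overlapped both other groups. Within a rat, SMC/Peri had the higher median against Fib/Peri in 9 of 12 rats, against AA/LA/EA in 7 of 12 and against all other nuclei in 2 of 12.

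Expressed genes per nucleus followed the UMIs, with medians from 575.5 (RK7_4) to 1383 (RK1_4). In nuclei of 1000 to 2000 UMIs the medians were 1159.5, 1076.5 and 879 in the lean rats RK1_4, RK3_4 and RK5_4. They were 781, 941.5 and 952.5 in the untreated obese rats RK7_4, RK9_4 and RK16_4, with only 2 such nuclei in RK7_4. The groups overlapped, and the difference of -147 genes had an exact permutation p = 0.3. The window does not hold depth equal, since the median UMIs inside it were 1473 ± 213 in lean and 1259 ± 78.1 in untreated obese rats (SD, n = 3), so the difference in genes still carries one in UMIs. It was -86.1 without RK1_4, -91.3 without RK7_4 and -226 without RK5_4. Rats under sGCact ranged from 935.5 to 978, and those under sGCstim from 904 to 1061.5.

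Mitochondrial transcripts in a nuclear preparation come from cytoplasm carried along or from free RNA. The median percentage in SMC/Peri was 0.622%, 0.512% and 0.268% in the lean rats RK1_4, RK3_4 and RK5_4. The untreated obese rats RK7_4, RK9_4 and RK16_4 had 0.425%, 1.43% and 1.17%. Under sGCact it was 0.519%, 2.02% and 0.227% (RK43_4, RK45_4, RK46_4) and under sGCstim 0%, 0.0897% and 3.33% (RK57_4, RK58_4, RK61_4), so the highest and the lowest rat were in 1 group. On the log2(percentage + 0.1) scale, which understates changes of low percentages, untreated obese minus lean was 0.88 (SE 1.21, limma adjusted p = 0.806). The treatments gave -0.42 and -1.32 against untreated obese, and sGCact minus sGCstim was 0.91 (limma adjusted p = 0.926, 0.812 and 0.690). The sGCstim value was -0.32 without RK57_4 and -2.87 without RK61_4, and -0.22 and -2.60 with pseudocounts of 1 and 0.01. All 4 contrasts called 0% of 22 clusters, with 2, 1, 2 and 1 clusters at an unadjusted p under 0.05. Nuclei above 5% were concentrated in RK9_4 (14 nuclei, 31.1%) and RK61_4 (21 nuclei, 28.8%), and the other rats had at most 4 such nuclei each. SMC/Peri had a lower median than Fib/Peri in 10 of 12 rats.

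**Figure D4:**
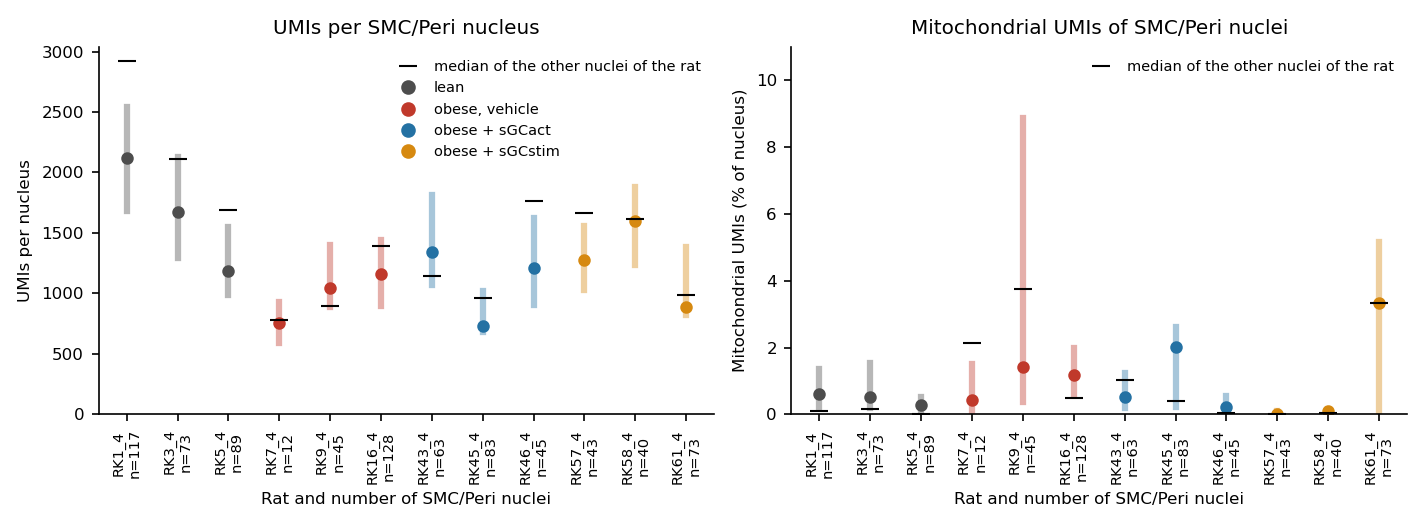
UMIs per SMC/Peri nucleus (left) and mitochondrial UMIs in percent of the nucleus (right) in each rat, with points for the median, bars from the lower to the upper quartile and dashes for the median of the other nuclei of the rat. Lean medians (1188 to 2117 UMIs) lie above untreated obese ones (755.5 to 1161.5), and RK9_4, RK45_4 and RK61_4 stand out on the right (1.43%, 2.02% and 3.33%) with RK16_4 (1.17%) next.

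The deposited cell cycle scores were low in SMC/Peri. Over all nuclei of the cluster the mean S score was -0.0113 and the mean G2M score -0.0128, the 24th and 21st of 25 clusters from the top. G1 was called for 44.8% of SMC/Peri nuclei, a share exceeded only by podocytes (54.2%). A call of G1 was given wherever both scores were below 0 (811 of 811 calls follow this rule), so the phases restate the scores, and cycling was not read from them. The scores were lower in SMC/Peri than in AA/LA/EA in 10 of 12 rats for S and in 9 of 12 for G2M. Against Fib/Peri they were lower in 6 of 12 rats each.

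Between groups the scores did not differ beyond the spread of rats pooled over all 4 groups. Mean S scores by group ran from -0.0148 ± 0.00419 in lean to -0.00562 ± 0.00348 in sGCstim-treated rats, and mean G2M scores from -0.0166 ± 0.00788 under sGCact to -0.00628 ± 0.00456 under sGCstim (SD, n = 3). The difference of sGCact minus sGCstim was -0.0080 for S (lower in 9 of 9 comparisons, limma adjusted p = 0.482) and -0.0103 for G2M (lower in 8 of 9, limma adjusted p = 0.231). In this contrast 0% of the 22 clusters passed for either score, with 2 and 4 at an unadjusted p under 0.05. The rats of these groups did not overlap in the S score of 22.7% of the clusters. For obese against lean and for each treatment the S differences were 0.0044, -0.0032 and 0.0048 and the G2M differences 0.0028, -0.0058 and 0.0045 (limma adjusted p between 0.461 and 0.793). Of the clusters 0%, 0% and 18.2% passed for S (3, 4 and 5 of 22 at an unadjusted p under 0.05) and 31.8%, 4.55% and 0% for G2M (8, 7 and 3).

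On the deposited embedding SMC/Peri formed a compact body with a tail. Of the 15 nearest nuclei of each member, 82.4% were SMC/Peri themselves, 11.5% were DTL(Shroom3+) and 3.16% were Fib/Peri. DTL(Shroom3+), a cluster named for the descending thin limb of the loop of Henle, is a tubule cluster, and it came before the other stroma cluster as neighbour. Of AA/LA/EA, 1 nucleus was found among the neighbours. A total of 153 members (18.9%) had mostly neighbours from other clusters, of which 44.5% were DTL(Shroom3+), 27.0% SMC/Peri and 15.3% Fib/Peri. Most of them lay along the tail that runs past DTL(Shroom3+) to the edge of Fib/Peri. Only 12 nuclei lay more than 5 units from the middle of the cluster, among nuclei of tubule and endothelial clusters.

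The tail was not shared evenly among rats, by either of 2 measures. The first is position, to the right of -6 on the first coordinate, where 233 members lay. These were 30.8%, 38.4% and 38.2% of the SMC/Peri nuclei in the lean rats RK1_4, RK3_4 and RK5_4 and 16.7% (2 of 12), 13.3% (6 of 45) and 23.4% in the untreated obese rats RK7_4, RK9_4 and RK16_4. With sGCact the values were 39.7%, 14.5% and 44.4% (RK43_4, RK45_4, RK46_4), and with sGCstim 32.6%, 35.0% and 16.4% (RK57_4, RK58_4, RK61_4). All 3 untreated obese rats lay below the lean range, and each treated group held 1 rat as low. How often other clusters split in this way was not counted, so this lack of overlap has no background to be read against. The second measure counts members with mostly other neighbours, of which 136 of 153 lay right of -6, while 97 of the 233 nuclei there had mostly SMC/Peri neighbours. It gave 19.2% to 29.2% in lean rats, 0%, 0% and 15.6% in RK7_4, RK9_4 and RK16_4, 30.2%, 4.82% and 33.3% with sGCact and 27.9%, 32.5% and 9.59% with sGCstim. Other clusters were not counted for this measure either. The 0 of 12 and 0 of 45 nuclei of RK7_4 and RK9_4 allow shares of up to about 25% and 6.67%. These are approximate upper limits at 95% confidence, taken as 3 divided by the number of nuclei, and they cover counting error only.

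By both measures RK7_4, RK9_4, RK45_4 and RK61_4 were the 4 lowest rats, and they also had the lowest median UMIs in SMC/Peri and the highest proximal tubule shares. In these rats the nuclei right of -6 had median UMIs of 1074, 1480.5, 1016 and 1483.5, against 700, 972, 710 and 877 in the other SMC/Peri nuclei. Their median mitochondrial percentage was 0.236%, 0.309%, 0.0875% and 0.0613%, against 0.628%, 1.79%, 2.13% and 4.56%. Over all rats, UMIs were higher right of -6 in 8 of 12 and the mitochondrial percentage was lower in 6 of 12. Both divisions were made after the embedding was seen, so no test was run, and the part of depth and of tubule RNA in them was not tested.

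**Figure D5:**
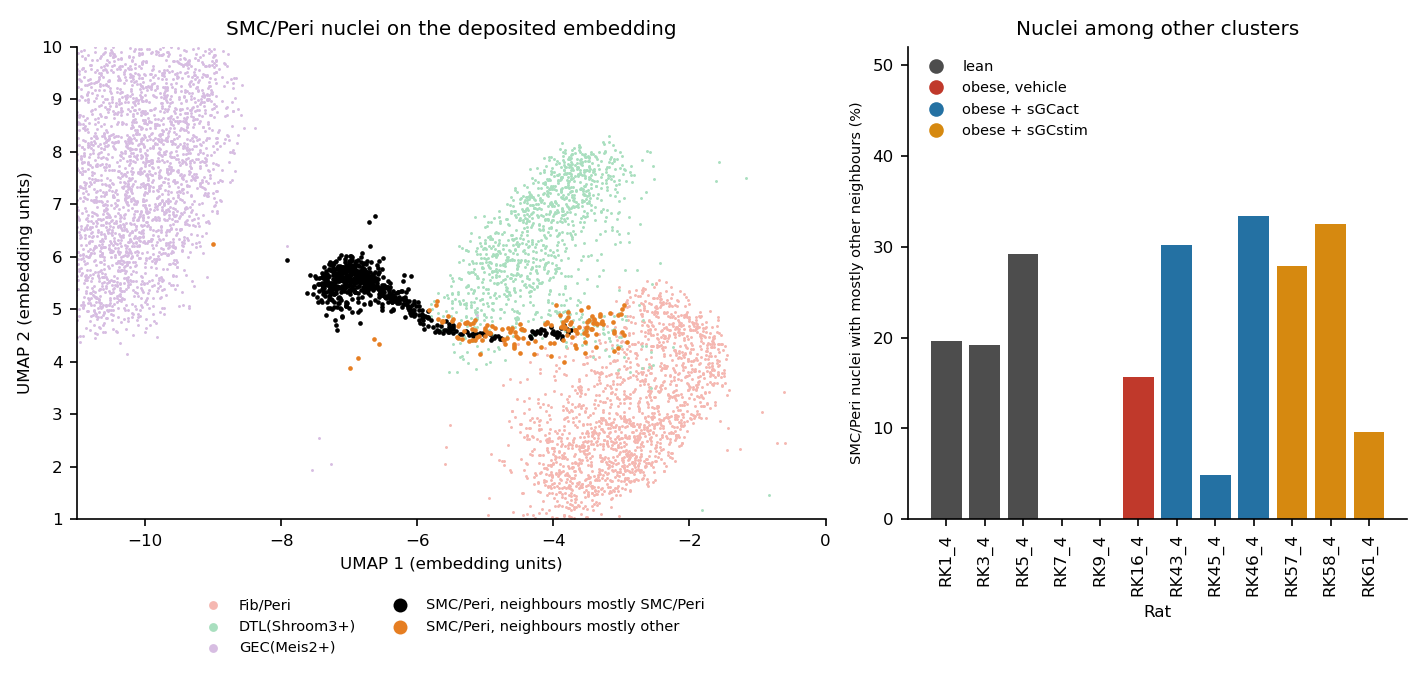
Left, SMC/Peri nuclei on the deposited embedding (UMAP 1 and 2, embedding units), black where most of the 15 nearest nuclei are SMC/Peri and orange where most are not, among 6000 randomly drawn nuclei of Fib/Peri, DTL(Shroom3+) and GEC(Meis2+), a glomerular endothelial cluster. Right, percentage of SMC/Peri nuclei with mostly other neighbours in each rat, which is 0% in RK7_4 and RK9_4 and 33.3% in RK46_4; nuclei outside the drawn window are not shown on the left.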

How the data were processed

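Nuclei of snap-frozen kidneys of 12 rats were sequenced with a droplet 3′ method, 3 rats per group. The authors aligned the reads with Cell Ranger (version 6 in the submitters' processing notes, while the study's methods name another version) to rn6 with intronic reads kept, corrected for ambient RNA (SoupX), removed doublets (DoubletFinder), kept nuclei of 200 to 3000 genes with at most 15% mitochondrial UMIs, integrated the rats (Harmony) and clustered in Seurat. The UMIs of each nucleus are deposited as whole-number counts without normalization, its mitochondrial UMIs as a percent of all its UMIs, and its S and G2M values are scores by the authors. The number of expressed genes, cluster names, phases and coordinates are deposited as other values. Counts per gene were not analysed here. No column of values per nucleus was left unused (0).

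The table names the rat and the group of each nucleus, with groups spelled as in the sample titles. Rats carry animal identifiers and no replicate number, so a rat is tied to the labels only through its group, and no library batch is given in the sources used here. The rat was the replicate throughout. Shares of 25 clusters entered limma 3.58.1 in R 4.3.3 (lmFit, eBayes, 8 residual degrees of freedom) as log odds with 0.5 nuclei added to the cluster and 1 to the total. For each cluster the spread was pooled over all 4 groups, so a group outside a contrast also entered its error. The stroma and AA/LA/EA ratios had 0.5 added to both sides. Median UMIs (log2), median mitochondrial percentage (log2 with a pseudocount of 0.1) and mean scores were fitted over the clusters with at least 10 nuclei in every rat. P values were adjusted over clusters by the Benjamini-Hochberg method at a threshold of 0.05. Exact permutation tests over rats were two-sided, and relations across rats used 100000 resamples. Nearest nuclei were sought over all clusters on the deposited coordinates. The limma fit across clusters was tested on simulated data for obese minus lean. The edgeR and DESeq2 fits and the fits of the compared groups alone were not. Python 3.11.15, pandas 2.3.3, numpy 2.4.6 and scipy 1.17.1 were used.

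The members, the comparator clusters and the tests were chosen with earlier results of these data known. SMC/Peri was described in full, with the other stroma cluster, endothelial clusters and proximal tubule as comparators, and another cluster was named only as a neighbour in size or position or where few clusters were called; podocytes were named after their values were seen. The study's differential proportion analysis was not repeated. Alternatives were edgeR 4.0.16 (total or TMM), DESeq2 1.42.0, other scales and denominators, the compared groups alone, nuclei of at least 1000 UMIs or at most 1% mitochondrial UMIs, other pseudocounts, means or medians, and each rat left out in turn.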

Additional observations from a re-analysis of the deposited data

How the results depend on the processing

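Of 479 recomputed values, 444 kept their direction and their side of the threshold or moved by less than the spread between rats. Another 23 reversed, 5 moved further, 4 came to pass the threshold and 3 no longer passed it. The 444 do not measure robustness, since many could not change direction. Leaving out a rat outside a limma contrast, or fitting the compared groups alone, keeps the estimate as it was. The cause of the changes below was not tested beyond what each setting removes. Differences in SMC/Peri log odds for sGCact minus untreated obese turned to -0.069 with edgeR on total nuclei, -0.20 with DESeq2 and -0.19 among nuclei other than proximal tubule. For sGCstim minus untreated obese they turned to -0.18 and -0.14 with edgeR on total nuclei and with TMM, -0.28 with DESeq2, -0.26 among nuclei other than proximal tubule and -0.033 there without RK16_4. Obese minus lean turned to 0.052 among nuclei other than proximal tubule, and sGCact minus lean to 0.039 with edgeR and TMM. With each rat left out in turn the log odds ranged from -1.63 to -0.51 (obese minus lean), 0.078 to 1.20 (sGCact minus untreated obese) and -0.026 to 1.10 (sGCstim minus untreated obese). The only calls came without RK16_4, and sGCstim minus untreated obese reversed without RK9_4. The adjusted p of these fits lay between 0.00231 and 1.00 over all alternatives. Median UMIs ranged from -0.95 (without RK5_4) to -0.53 on the log2 scale for obese minus lean, from -0.059 (without RK7_4) to 0.39 for sGCact minus untreated obese and from -0.43 to 0.069 (without RK45_4) for sGCact minus sGCstim. The mitochondrial percentage ranged from -1.16 to 0.19 (without RK46_4) for sGCact minus untreated obese, from -2.87 (without RK61_4) to -0.32 (without RK57_4) for sGCstim minus untreated obese and from -0.10 (without RK57_4) to 2.45 for sGCact minus sGCstim. S scores ranged from -0.00080 (without RK9_4) to 0.0092 for obese minus lean and from -0.0080 to 0.0020 (without RK9_4) for sGCact minus untreated obese, and G2M scores from -0.00028 (without RK1_4) to 0.0068 for obese minus lean, also negative without RK7_4 (-0.00013). With medians in place of means sGCact minus untreated obese was 0.00098 for S and 0.0012 for G2M, and obese minus lean was -0.0035 for G2M. Relative to the other nuclei, with at most 1% mitochondrial UMIs, SMC/Peri UMIs differed by 0.020 (obese minus lean) and 0.19 (sGCstim minus untreated obese). Genes in nuclei of 2000 to 3000 UMIs, of which RK7_4 had none, differed by 35.0 (obese minus lean), -209 (sGCact) and -99.3 (sGCstim minus untreated obese). The relation to the proximal tubule share was -0.79 with group means taken out, -0.61 without the 2 farthest rats and -0.65 in nuclei of at least 1000 UMIs, each past no threshold once adjusted. No paired analysis was possible because the table names rats by animal and gives no replicate number. UMIs with at most 1% mitochondrial UMIs, and mitochondrial percentage and scores with at least 1000 UMIs, gave no value, since a rat then had as few as 8 and 2 SMC/Peri nuclei, under the minimum of 10.

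With 3 rats per group and 12 SMC/Peri nuclei in RK7_4, the share, UMIs and position of that rat rest on few nuclei. Shares compare parts of the nuclei retained and say nothing of cells per kidney.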
